A study of Mus musculus with 15 samples.

Results

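The 9 genes studied here, of retinoic acid synthesis and response, were followed in mRNA-seq libraries of embryonic day 18 (E18) mouse dorsal forebrain. They were listed by name, with earlier results of these data known, and make up 9 of the 53337 genes to which the deposited transcripts were summed. They are Stra6, Rdh10, Aldh1a1, Aldh1a2, Aldh1a3, Crabp1, Crabp2, Cyp26b1 and Rarb. All 15 libraries came from embryos of C57BL/6J dams that carried a subcutaneous osmotic minipump, implanted before breeding, through gestation. The pump released arginine vasopressin (AVP), a peptide hormone used here to model preeclampsia, or saline. AVP was given to the dam and not to the embryo. There were 4 AVP male, 4 saline male, 3 AVP female and 4 saline female libraries, each of 1 embryo's dissected dorsal forebrain. The study sequenced 4 AVP females and left out 1 as an outlier of high variance. The study describes the embryos of a group as coming from separate litters, while male and female embryos together came from fewer litters than embryos. The labels do not link embryos to litters, so p-values for AVP from fits of both sexes together may be too small. Sex and its interaction with AVP vary within litters that gave both a male and a female. Their p-values may instead be too large. Every level is given as TPM, transcript abundance scaled for transcript length and library total. The authors' values carry no unit in their header and were read as TPM because each library sums to 1000000. The depth of each library is unknown because TPM keeps none. The study's methods give reads only as an average over samples.

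Retinoic acid is made from vitamin A in 2 oxidation steps. STRA6 carries retinol into cells, RDH10 oxidises it to retinal, and the 3 retinal dehydrogenases ALDH1A1, ALDH1A2 and ALDH1A3 complete the synthesis. CRABP1 and CRABP2 bind retinoic acid in the cytoplasm, CYP26B1 breaks it down, and the receptor RARB acts on response genes together with a retinoid X receptor. In the embryonic forebrain the meninges, which express Aldh1a2, are known as a main source of retinoic acid for the cortex, and Rarb and Crabp1 are known in the developing striatum. The comparisons asked whether maternal AVP or sex moved these genes, and how their levels followed markers of meninges, striatum, choroid plexus and vessels in the same libraries.

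The genes lie on 7 chromosomes of GRCm38. Stra6 (ENSMUSG00000032327) spans chr9:58063788-58153996 and Rdh10 (ENSMUSG00000025921) spans chr1:16105774-16133734. Aldh1a1 (ENSMUSG00000053279) lies at chr19:20492715-20643465, Aldh1a2 (ENSMUSG00000013584) at chr9:71215789-71296243 and Aldh1a3 (ENSMUSG00000015134) at chr7:66390890-66427517. Crabp1 (ENSMUSG00000032291) lies at chr9:54764748-54773110, Crabp2 (ENSMUSG00000004885) at chr3:87948666-87953376, Cyp26b1 (ENSMUSG00000063415) at chr6:84571414-84593908 and Rarb (ENSMUSG00000017491) at chr14:16430839-16819156. All are protein coding. Stra6 overlaps Ccdc33 and Rarb overlaps Top2b on the opposite strand, and the quantification used strand. Of the 31-base words in the main Aldh1a1 transcript, 13.9% also occur in its neighbour Aldh1a7, so Aldh1a1 levels are less certain than those of the other members, which shared none.

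Rarb is a classical target of its own ligand, through a retinoic acid response element at its promoter. RefSeq promoter windows on GRCm38.p6, each running from 250 bases before to 50 bases after a gene start, were held for 6 of the 9 members; those of Rdh10, Aldh1a3 and Crabp2 were not used here. The windows were searched on both strands for direct repeats of the receptor half-site, which was AGGTCA or its form AGTTCA, each also with G as its first letter. The spacer was 1, 2 or 5 bases (DR1, DR2 and DR5), and a half-site could be part of more than one repeat. One member held one. It is a repeat with a 5-base spacer (DR5) in Rarb, shown here because Rarb is the receptor among the members. It lies 53 to 37 bases before the RefSeq start, within chr14:16575507-16575535 on the minus strand, with the repeat in capitals:
Rarb: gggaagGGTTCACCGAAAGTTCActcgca
A DR5 occurred in 32 of all 32851 windows (0.0974%), a DR1 in 73 (0.222%) and a DR2 in 88 (0.268%). No window of Stra6, Aldh1a1, Aldh1a2, Crabp1 or Cyp26b1 held any of them. In GENCODE, 5 Rarb transcripts start within 500 bases of the RefSeq start, and they made up 69.0% to 100% of Rarb TPM in a library (median 80.2%). The other 2 start 244 kb or more upstream and summed to at most 4.37 TPM. Rarb-201, with a median of 76.0% of Rarb TPM, starts 67 bases upstream of the RefSeq start, and Rarb-207 starts 351 bases upstream. The repeat therefore lies after the annotated starts of these transcripts, inside their span, and not upstream of them.

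Crabp1 had the highest mean level of the members, at 17 ± 12.2 TPM (SD, n = 15 libraries). Crabp2 followed at 10.3 ± 4.52, Aldh1a2 at 9.53 ± 3.50 and Rarb at 8.82 ± 5.85 TPM. Rdh10 was at 6.96 ± 0.940, Cyp26b1 at 6.06 ± 2.17 and Stra6 at 4.02 ± 0.929 TPM. Aldh1a1 was at 1.45 ± 0.695 and Aldh1a3 at 0.733 ± 0.412 TPM. Neighbours among the first 7 differed by less than the larger of their SDs, whereas the steps from Stra6 to Aldh1a1 and from Aldh1a1 to Aldh1a3 were larger than the SDs of the genes concerned. Among the retinal dehydrogenases Aldh1a2 was therefore the most abundant, with a lowest library (3.43 TPM) above the highest of Aldh1a1 (3.14 TPM) and of Aldh1a3 (2.002 TPM).

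The members differed widely in how much they varied between libraries. The coefficient of variation over the 15 libraries was 72.1% for Crabp1 and 66.3% for Rarb, and 97.7% and 97.3% of the 15078 genes past the expression filter (at least 1 TPM in at least 50% of libraries) varied less. Crabp1 ran from 2.49 to 35.6 TPM, a 14.3-fold range, and Rarb from 2.31 to 20.3 TPM, an 8.76-fold range. Rdh10 had the smallest variation of the members, at 13.5%, below the 15.5% median of all genes. Stra6 was at 23.1%, Cyp26b1 at 35.8%, Aldh1a2 at 36.8%, Crabp2 at 43.7% and Aldh1a1 at 47.9%. Aldh1a3 reached 1 TPM in 2 of 15 libraries, did not pass the filter and was left out of every fit across genes, so 8 of the 9 members were tested.

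**Figure D1:**
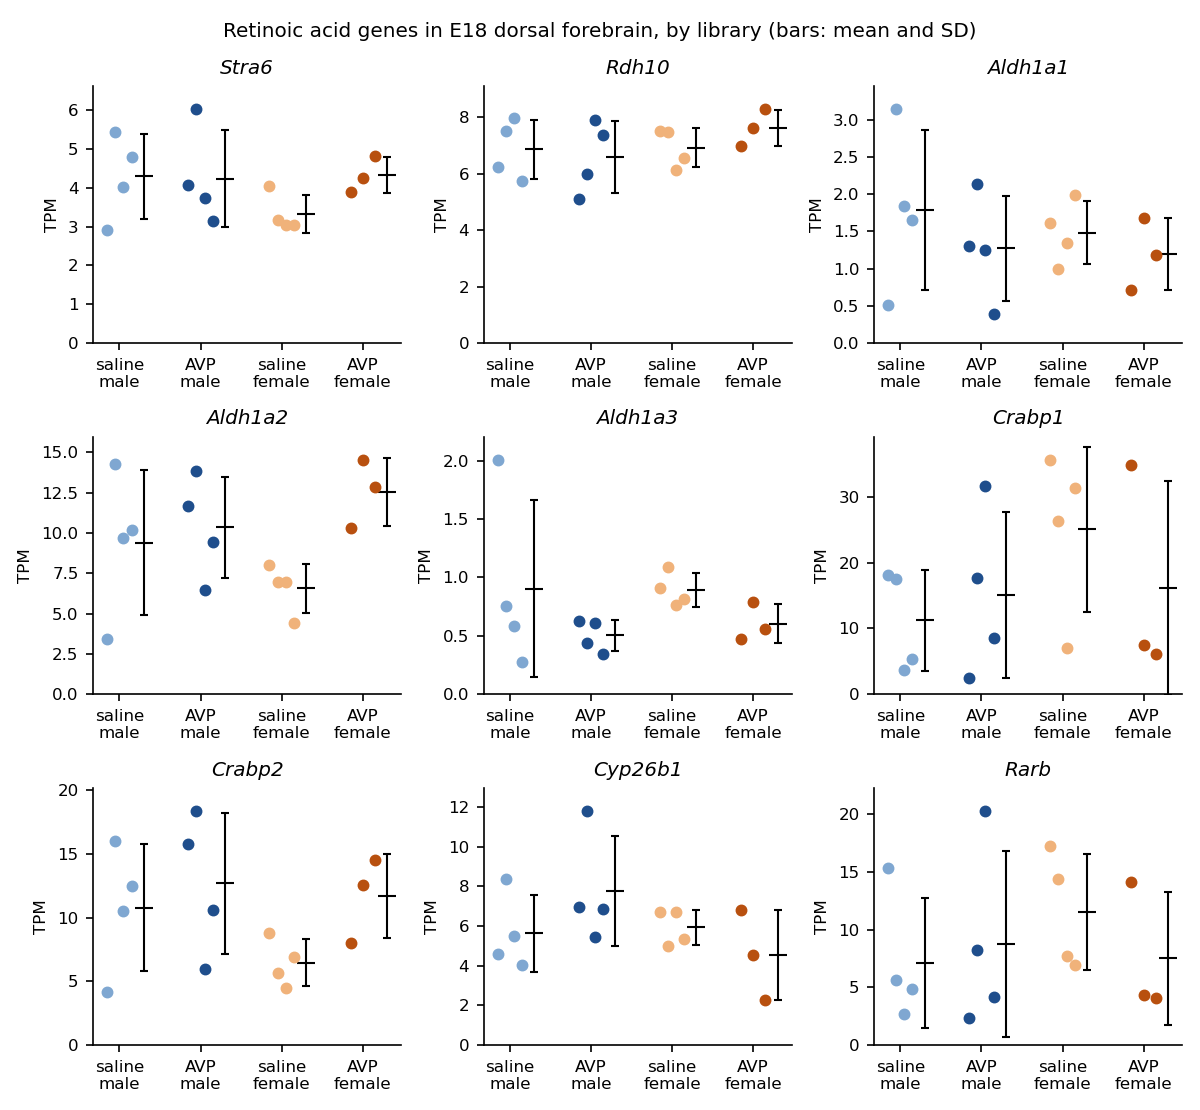
TPM of each of the 9 genes (vertical axes, each from 0) in the saline and AVP libraries of each sex. Points are libraries, bars are the group mean and SD (the lower bar of Crabp1 in AVP females stops at 0), and the groups overlap for every gene and sex except Aldh1a2 in females.

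The libraries share some features that touch these genes. Dorsal forebrain markers such as Emx1, Tbr1 and Neurod2 summed to between 1153 and 1605 TPM in each library, and none of the 10 was at 0 anywhere. Meningeal fibroblast markers (16 genes, among them Col1a1, Col1a2 and Foxc1) summed to between 71.1 and 328 TPM. Striatal projection neuron markers (15 genes, among them Drd1, Drd2 and Adora2a) summed to between 62.6 and 245 TPM, and endothelial markers (11 genes, among them Cldn5) to between 152 and 303 TPM. No gene of these 3 lists was at 0 in any library. Choroid plexus markers summed to between 10.3 and 2316 TPM, and Folr1 was at 0 in 1 library. Xist stood at 266 TPM in the library labelled saline male 3, against 174 to 294 TPM in the female libraries and at most 1.13 TPM in the other male ones, and 0.489 TPM of Y-linked genes, against 102 or more in the other male ones. This library goes against its label. For the members, the AVP, sex and interaction fits that hold it are therefore given with and without it.

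Aldh1a2, which encodes the retinal dehydrogenase of the meninges, was the one member whose AVP and saline libraries did not overlap in 1 of the sexes, which was in females. AVP females had 10.3, 14.5 and 12.9 TPM, and saline females had 8.00, 6.93, 6.95 and 4.38 TPM. All 3 AVP libraries lay above all 4 saline libraries. The AVP female that the study left out as an outlier is not among them, so its level is unknown here. The means were 12.6 ± 2.11 (SD, n = 3) and 6.56 ± 1.54 TPM (SD, n = 4), a ratio of 1.91, and the difference was 0.90 (SE 0.22) on the log2(TPM + 0.5) scale. The exact two-sided permutation test gave p = 0.0286, the smallest that 3 against 4 libraries allow. In limma across all genes the unadjusted p was 0.00306 and the Benjamini-Hochberg adjusted p was 0.999, so the difference did not pass the 0.05 threshold over all genes. In females, groups that did not overlap with AVP higher were found for 1 of the 9 members and for 2.78% of the 15132 genes tested, and 5.55% of genes did not overlap in either direction. In bulk tissue, more cells of a type and more RNA per cell cannot be told apart.

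Crabp2, a binding protein that delivers retinoic acid to its receptors, was also higher on average in AVP females, but its groups overlapped. The levels were 8.03, 12.5 and 14.5 TPM in AVP females and 8.79, 5.63, 4.47 and 6.93 TPM in saline females. Saline female 1 lay above AVP female 1, and the other saline libraries lay below all AVP ones. The log2 difference was 0.81 (SE 0.27; exact permutation p = 0.0857; limma unadjusted p = 0.0155, adjusted p = 0.999). Stra6, the retinol transporter, had 3.90, 4.24 and 4.83 TPM in AVP females and 4.05, 3.17, 3.04 and 3.03 TPM in saline females, a log2 difference of 0.34 (SE 0.18; exact permutation p = 0.0857; limma adjusted p = 0.999). Saline female 1 again lay inside the range of the AVP libraries. The meningeal score, the mean log2(TPM + 0.5) of the meningeal markers past the filter, moved with these differences. It was 3.22 to 3.66 in AVP females and 2.48 to 2.97 in saline females. The list holds 4 genes that the study counts as changed, Col1a1, Col1a2, Dcn and Slc6a13, so its direction in females is not independent evidence. Without these 4, a choice made after seeing the data, the score was 2.70 to 3.16 and 1.91 to 2.49, also without overlap. Of 12 marker lists, the meningeal, endothelial, mural and border macrophage scores were higher in AVP females without overlap, and 8 overlapped. The border macrophage score rests on 5 genes. One of them, Mrc1, is also counted as changed in females by the study, so its direction is not independent evidence either. The part of these scores in the differences of Aldh1a2, Crabp2 and Stra6 was not tested.

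The remaining members overlapped between AVP and saline females. Crabp1 had 35.0, 7.43 and 6.09 TPM in AVP females and 35.6, 26.4, 7.05 and 31.4 TPM in saline females. One AVP library was as high as the highest saline one, and 1 saline library was as low as the other AVP ones, so the log2 difference of -0.84 had an SE of 0.69. Rarb had 14.1, 4.34 and 4.06 TPM in AVP females and 17.2, 14.4, 7.72 and 6.90 TPM in saline females, with a log2 difference of -0.71 (SE 0.47). The log2 differences were -0.45 (SE 0.31) for Cyp26b1, -0.24 (SE 0.28) for Aldh1a1 and 0.13 (SE 0.15) for Rdh10, each with a limma adjusted p of 0.999. Aldh1a3, not in the fit, was at 0.603 ± 0.166 TPM in AVP and 0.891 ± 0.143 TPM in saline females (SD, n = 3 and n = 4; exact permutation p = 0.0571). By limma, 0 of 8 members and 0 of 15132 genes (0.00%) passed in females. At an unadjusted p under 0.05, 683 genes did (4.51%), and so did Aldh1a2 and Crabp2.

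**Figure D2:**
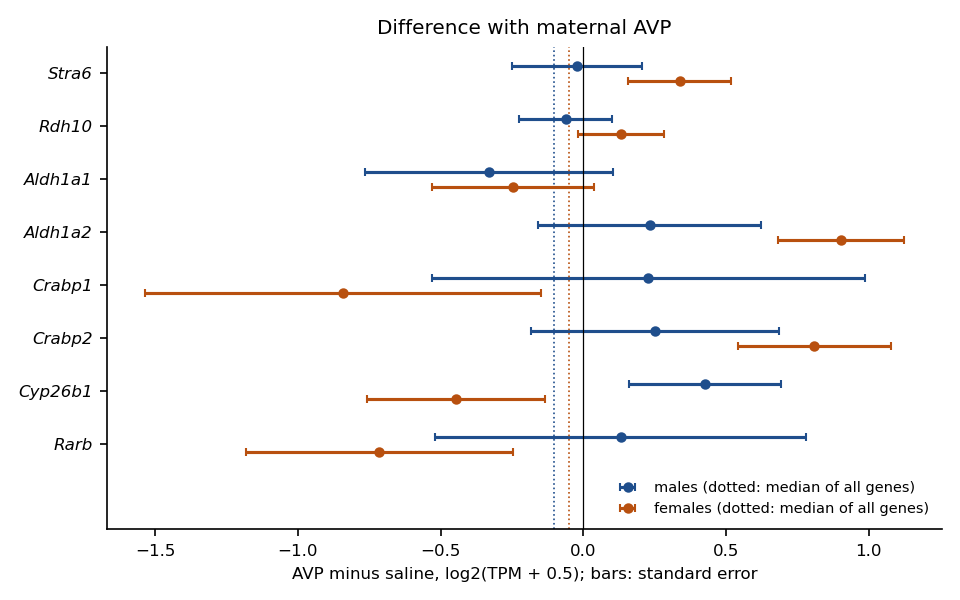
Difference between AVP and saline libraries (horizontal axis, log2(TPM + 0.5), with standard errors from limma) for the 8 genes tested, in males and in females. Dotted lines are the medians of all genes; Aldh1a2 and Crabp2 in females lie farthest to the right, at 0.90 and 0.81.

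In males all 9 members overlapped between AVP and saline, and none of the 8 tested passed. Aldh1a2 had 11.7, 13.8, 6.44 and 9.46 TPM in AVP males and 3.43, 14.3, 9.68 and 10.2 TPM in saline males. The saline group held both the lowest and the highest of the 8 libraries. The log2 difference was 0.23 (SE 0.39; limma adjusted p = 0.819), and it was -0.16 without saline male 1, the library of 3.43 TPM, and 0.30 without the library labelled saline male 3. Crabp2 had 15.8, 18.3, 6.00 and 10.6 TPM in AVP males and 4.20, 16.0, 10.5 and 12.5 TPM in saline males, with a log2 difference of 0.25 (SE 0.43), which was -0.12 without saline male 1 and 0.28 without the library labelled saline male 3. For both genes, saline male 1 set the direction.

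Cyp26b1, the enzyme that degrades retinoic acid, had the largest difference in males. Its levels were 6.96, 11.8, 5.46 and 6.84 TPM in AVP males and 4.59, 8.37, 5.49 and 4.04 TPM in saline males. The groups overlapped, although 3 of the 4 saline libraries lay below 3 of the 4 AVP ones. The log2 difference was 0.43 (SE 0.27; exact permutation p = 0.257; limma adjusted p = 0.488). It was 0.43 without the library labelled saline male 3, and it ran from 0.22 to 0.62 when single male libraries were left out. Rarb had 2.31, 8.21, 20.3 and 4.20 TPM in AVP males and 15.4, 5.66, 2.67 and 4.87 TPM in saline males, a log2 difference of 0.13 (SE 0.65), and -0.21 without the library labelled saline male 3. Crabp1 had 2.49, 17.7, 31.7 and 8.48 TPM in AVP males and 18.2, 17.6, 3.69 and 5.395 TPM in saline males, a log2 difference of 0.23 (SE 0.76), and -0.17 without that library. Each treatment held 1 library of very high and 1 of low Rarb, so neither gene had a direction that the males shared.

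Aldh1a1, Rdh10 and Stra6 had log2 differences of -0.33 (SE 0.43), -0.06 (SE 0.16) and -0.02 (SE 0.23) in males. Without the library labelled saline male 3 they were -0.27, 0.01 and -0.04, so the sign of Rdh10 turned. Those of Rdh10 and Stra6 changed sign with another scaling, to 0.04 and 0.08 with median-of-ratios scaling. That scaling moved the median log2 difference of all genes in males from -0.10 to 0.00. Aldh1a3 was at 0.502 ± 0.135 TPM in AVP and 0.902 ± 0.759 TPM in saline males (SD, n = 4 each). Its saline SD came from saline male 1, at 2.002 TPM. Over the 8 members tested the adjusted p ran from 0.488 to 0.975, and the median log2 difference was 0.18, against -0.10 over all genes. Of 15271 genes tested in males 1 passed, the microRNA gene Mir6392 (0.00655%), which is no member and is named after its value was seen. Of the 9 members, 0 had groups that did not overlap, against 7.27% of genes. At an unadjusted p under 0.05, 0 of 8 members and 13.5% of genes passed. Without the library labelled saline male 3, 0 of 15051 genes passed by limma and 1225 had an unadjusted p under 0.05. The adjusted p of the members then ran from 0.689 to 0.992, and again 0 of 9 had groups that did not overlap, against 9.06% of genes (an alternative chosen after seeing the data).

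Over all 15 libraries with sex as a covariate, 0 of 8 members and 0 of 15078 genes (0.00%) passed for AVP by limma, and 1564 genes (10.4%) had an unadjusted p under 0.05. Aldh1a2 had the largest difference of the members, 0.54 (SE 0.26; unadjusted p = 0.0508, adjusted p = 0.479), and Crabp2 had 0.51 (SE 0.28; adjusted p = 0.503). The other 6 lay between -0.29 and 0.14. Without the library of doubtful sex, the AVP difference was 0.60 for Aldh1a2 and 0.55 for Crabp2 (limma adjusted p = 0.659 each). The other 6 then lay between -0.50 and 0.15. In that fit 0 of 15164 genes passed, and 1112 had an unadjusted p under 0.05. The AVP difference was not shown to differ between the sexes for any member. The treatment by sex interaction was 0.67 (SE 0.50; limma adjusted p = 0.896) for Aldh1a2. It was -0.87 (SE 0.43; unadjusted p = 0.0622, adjusted p = 0.896) for Cyp26b1, whose mean was higher with AVP in males and lower in females. No gene passed for the interaction (0 of 15078, 0.00%), and 624 (4.14%) had an unadjusted p under 0.05. Without the library of doubtful sex, the interaction was 0.61 for Aldh1a2 and -0.88 for Cyp26b1 (limma adjusted p = 0.974 each). Again 0 of 15164 genes passed, and 440 had an unadjusted p under 0.05. Between females and males, members had log2 differences from -0.34 for Crabp2 to 0.71 for Crabp1, each with a limma adjusted p of 1. No gene passed there either (0 of 15078, 0.00%), and 210 (1.39%) had an unadjusted p under 0.05 with the library of doubtful sex included. Without it, 7 of 15164 genes passed and 0 of 8 members did, with log2 differences from -0.33 for Cyp26b1 to 0.47 for Crabp1.

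Across libraries the members fell into sets that rose and fell together. Aldh1a2, Crabp2 and Stra6 formed one. Over 15 libraries, Pearson's r of log2(TPM + 0.5) was 0.87 between Aldh1a2 and Crabp2 (rho = 0.88; permutation p = 1e-05, the smallest that 100000 resamples can give; adjusted over 36 pairs p = 0.00036). It was 0.80 between Aldh1a2 and Stra6 (rho = 0.87; adjusted permutation p = 0.00189) and 0.85 between Crabp2 and Stra6 (rho = 0.89; adjusted permutation p = 0.00156). Crabp1 and Rarb formed the other, with r = 0.87 (rho = 0.86; adjusted permutation p = 0.00156). No other of the 36 pairs passed; the smallest adjusted permutation p among them was 0.0625. With the mean of each treatment by sex group taken out, r was 0.85 for Aldh1a2 with Crabp2 and 0.79 for Aldh1a2 with Stra6. It was 0.81 for Crabp2 with Stra6 and 0.86 for Crabp1 with Rarb. The permutations for these and the later correlations shuffled all 15 libraries regardless of group and litter, so their p-values may be too small. Between the sets the coefficients were negative, from -0.17 for Crabp1 with Stra6 to -0.64 for Rarb with Crabp2.

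The labels give library numbers in a lower and a higher run, and each of these pairs held within both runs. Aldh1a2 with Crabp2 had r = 0.92 in the lower run (7 libraries) and 0.79 in the higher (8 libraries). Aldh1a2 with Stra6 had 0.87 and 0.73, Crabp2 with Stra6 0.91 and 0.75, and Crabp1 with Rarb 0.91 and 0.79. Without the 2 libraries farthest from the median of the first gene named, r stayed between 0.76 and 0.90. Some relations of other members, among them Cyp26b1, Aldh1a1 and Rdh10, turned over or were lost between the runs. With Stra6, Cyp26b1 had r = 0.97 in the lower and -0.82 in the higher run, and with Crabp2 0.90 and -0.65, so the pooled values of 0.20 and 0.17 describe neither. Aldh1a1 had r = 0.77 and -0.17 with Aldh1a2 and 0.82 and -0.08 with Crabp2. Rdh10 had r = 0.84 and 0.00 with Crabp1 and 0.66 and -0.09 with Rarb.

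**Figure D3:**
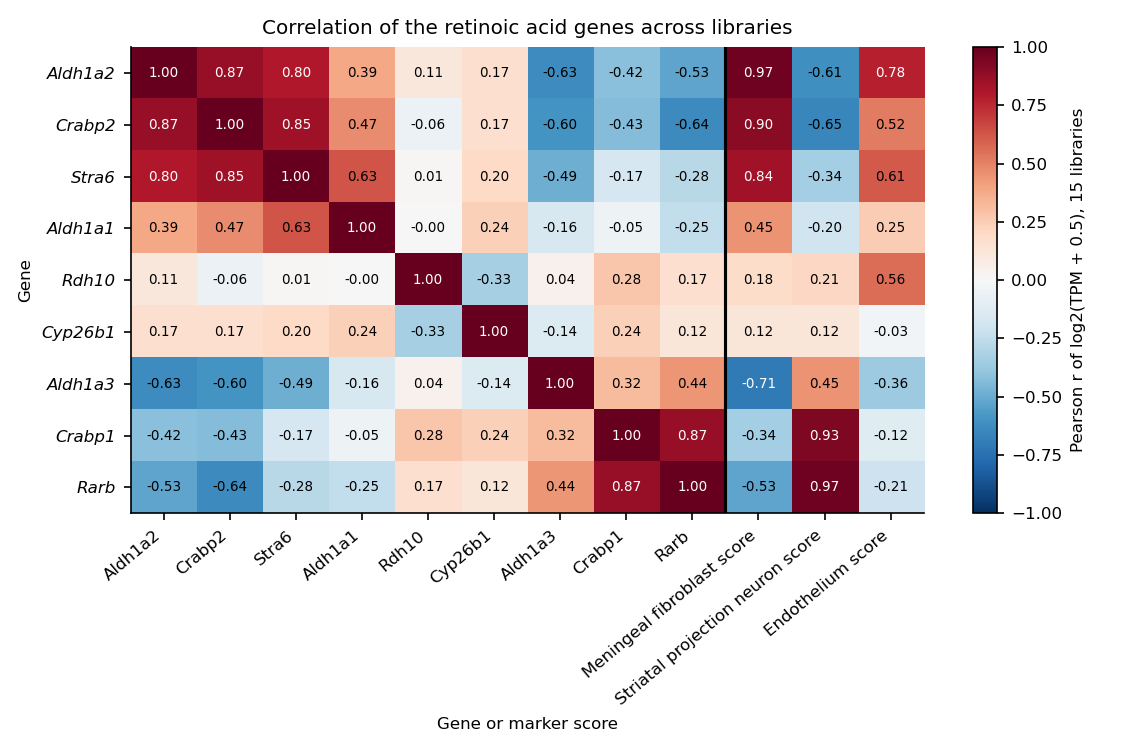
Pearson's r of log2(TPM + 0.5) over the 15 libraries for each pair of the 9 genes and, right of the black line, for each gene with 3 marker scores. Aldh1a2, Crabp2 and Stra6 form a block of 0.80 to 0.87 and reach 0.84 to 0.97 with the meningeal score, and Crabp1 and Rarb reach 0.93 and 0.97 with the striatal score.

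The first set followed the meningeal fibroblast score. AVP male 2, saline male 2, AVP female 2 and AVP female 3 had scores of 3.52 or more and Aldh1a2 levels of 12.9 TPM or more. Saline male 1 had the lowest score, 1.80, together with the lowest Aldh1a2, Crabp2 and Stra6 of all libraries (3.43, 4.20 and 2.91 TPM). Aldh1a2 had r = 0.97 with the score (rho = 0.93; adjusted over 27 relations, permutation p = 6.75e-05; 0.99 and 0.95 in the lower and higher runs). Crabp2 had r = 0.90 (rho = 0.88; adjusted permutation p = 6.75e-05; 0.89 and 0.93 in the runs) and Stra6 r = 0.84 (rho = 0.89; adjusted permutation p = 0.00054; 0.90 and 0.79 in the runs). Without saline male 1 and saline female 4, the libraries farthest from the median score, r was 0.96, 0.91 and 0.82. The score holds no member gene. Saline male 1 also had the lowest border macrophage score, 1.42. The members were not correlated with that score, so whether the relation is particular to meningeal fibroblasts was not tested.

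In the fit with the 4 treatment by sex groups as a term, Aldh1a2 rose by 1.0 (SE 0.10) and Crabp2 by 1.08 (SE 0.16) on the log2 scale for each unit of the meningeal score. The limma adjusted p was 0.000303 and 0.00328. These were 2 of 8 members, against 112 of 15063 genes (0.744%). The slope of Stra6 was 0.45 (SE 0.12; adjusted p = 0.142) and that of Aldh1a1 was 0.77 (SE 0.25; adjusted p = 0.384). The correlation of Aldh1a1 with the score was 0.81 in the lower and -0.17 in the higher run. The calls of Aldh1a2 and Crabp2 rested in part on saline male 1. Without AVP male 2 or saline male 2, 67 and 47 genes passed, both members among them. Without saline male 1, 0 genes passed by limma and 699 had an unadjusted p under 0.05. The slopes were then 1.07 for Aldh1a2 (adjusted p = 0.135) and 1.42 for Crabp2 (adjusted p = 0.154). Without the library labelled saline male 3 they were 1.0 and 1.08, and both passed.

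Aldh1a3, a retinal dehydrogenase of low level here, ran opposite to the meningeal score (r = -0.71; rho = -0.59; adjusted permutation p = 0.0147 and 0.0643). The relation weakened to r = -0.39 without saline male 1 and saline female 4 and thus rested on those libraries. Cyp26b1 had r = 0.12 with the meningeal score, with 0.86 in the lower and -0.65 in the higher run. Rdh10 had r = 0.18. With the endothelial score Aldh1a2 had r = 0.78 (rho = 0.69; adjusted permutation p = 0.00342 and 0.0275), but its limma slope of 1.82 did not pass with the groups as a term (SE 0.41; adjusted p = 0.101). It passed without AVP male 1 (2.04; adjusted p = 0.0498). Stra6 had r = 0.61 with the endothelial score (rho = 0.56; adjusted permutation p = 0.0462 and 0.0839), and 0.43 without the 2 libraries farthest from the median score, while Rdh10 had r = 0.56 (rho = 0.64; adjusted permutation p = 0.0728 and 0.0459). Of 15068 genes, 51 (0.338%) passed on the endothelial score, and 0 of 8 members. The count fell to 0 without saline male 1 and to 3 without saline male 2.

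**Figure D4:**
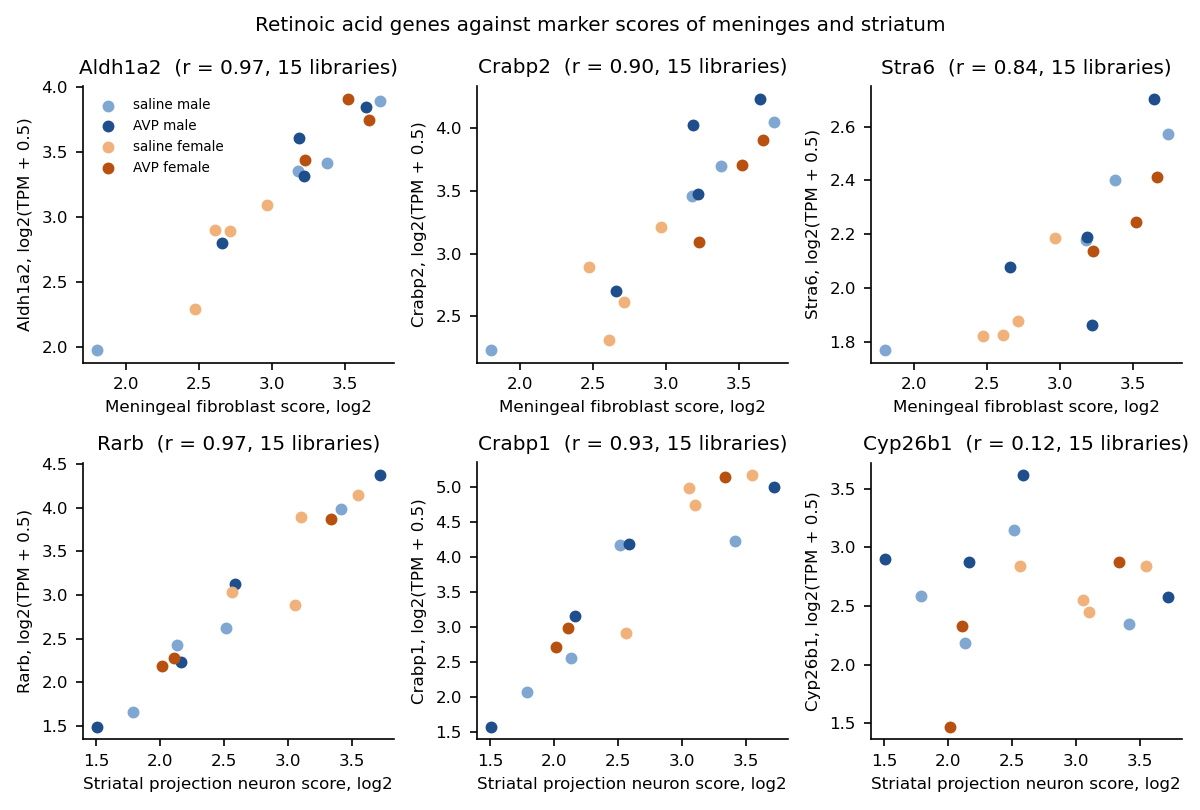
Log2(TPM + 0.5) of Aldh1a2, Crabp2 and Stra6 against the meningeal fibroblast score (upper row) and of Rarb, Crabp1 and Cyp26b1 against the striatal projection neuron score (lower row). Points are the 15 libraries by group; the lowest meningeal score, 1.80, is saline male 1, and Cyp26b1 has r = 0.12.

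Crabp1 and Rarb followed the striatal projection neuron score instead. AVP male 3 had the highest score of all libraries, 3.72, the highest Rarb (20.3 TPM) and 31.7 TPM of Crabp1. AVP male 1, of the same group, had the lowest score, 1.5, and the lowest Rarb and Crabp1 (2.31 and 2.49 TPM). Rarb had r = 0.97 with the score (rho = 0.97; adjusted permutation p = 6.75e-05; 0.98 and 0.96 in the lower and higher runs). Crabp1 had r = 0.93 (rho = 0.92; adjusted permutation p = 6.75e-05; 0.92 and 0.93 in the runs). Without AVP male 3 and AVP male 1, r was 0.96 and 0.91. AVP male 3 also had the highest interneuron score, 5.69, and AVP male 1 had 4.89. The members were not correlated with that score, so whether the relation is particular to striatal projection neurons was not tested.

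The limma slopes on the striatal score were 1.31 (SE 0.11; adjusted p = 5.21e-05) for Rarb and 1.60 (SE 0.19; adjusted p = 0.00150) for Crabp1. Thus 2 of 8 members passed, against 19 of 15064 genes (0.126%). The 19 became 10 without AVP male 3, 8 without saline male 1 and 11 without AVP female 1. Both passed with each library left out in turn, with adjusted p up to 0.00162 for Rarb and 0.0179 for Crabp1. Aldh1a2 and Crabp2 ran opposite to the striatal score. Aldh1a2 had r = -0.61 (rho = -0.60; adjusted permutation p = 0.0451 and 0.0579; -0.58 and -0.74 in the runs), and Crabp2 had r = -0.65 (rho = -0.61; adjusted permutation p = 0.0319 and 0.0568; -0.72 and -0.71 in the runs). Both passed on r and not on rho. Their limma slopes with the groups as a term, -0.42 (SE 0.17) and -0.50 (SE 0.19), did not pass (adjusted p = 0.999 each). The striatal score overlapped between AVP and saline in both sexes, at 1.5 to 3.72 against 1.79 to 3.41 in males and 2.02 to 3.34 against 2.56 to 3.55 in females. How far the dissected piece differed in its share of striatum was not tested.

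Choroid plexus, which also handles retinol, split the libraries into 2 clusters. There were 6 libraries with 559 to 2197 TPM of Ttr, a gene of the choroid plexus list, and 9 with 1.53 to 24.4 TPM. For this reason no correlation over all libraries is given, and the limma slopes on the choroid plexus score below have the same limit. The ranges of all 9 members overlapped between the clusters. Aldh1a2 had a median of 11 TPM (range 3.43 to 14.3) in the high cluster and 9.45 TPM (4.38 to 14.5) in the low one, Crabp2 11.3 and 10.5 TPM, Stra6 3.98 and 4.02 TPM and Rdh10 7.24 and 7.38 TPM. Crabp1 had medians of 17.9 and 8.48 TPM and Rarb of 9.89 and 6.90 TPM, with ranges that largely overlapped. The clusters largely coincided with the runs of library numbers. All of the high cluster but AVP female 3 was in the lower run. All of the low cluster but AVP male 2 and saline female 1 was in the higher run. By run, Crabp1 averaged 21.8 (lower) and 12.7 TPM (higher), and Rarb 11 and 6.88 TPM. Cluster and run were not separated here. On the choroid plexus score, 0 of 8 members passed by limma and 4 of 15072 genes did (0.0265%); these were Wfikkn2, Cfap126, 1500015O10Rik and Gm43300, named after their values were seen.

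The genes most alike to each member over the 15 libraries differed by set. Aldh1a2 was most like Col1a2 (r = 0.97), Gja1 (0.96) and Col6a2 (0.96), of which Col1a2 is one of the meningeal markers. Crabp2 was most like Cdh1 (0.95), Car13 (0.93) and Foxc2 (0.93), and Stra6 like Nupr1 (0.93), Bmp6 (0.88) and S100a11 (0.87). Foxc2 is also on the meningeal list. Rarb was most like Pde7b, Rxrg and Zfp503 (0.97 each), and Crabp1 like Isl1 (0.93), Ntn1 (0.91) and Pde7b (0.90). Zfp503 and Isl1 are on the striatal list. Cyp26b1 was most like Ddn, Sst and Bpgm (0.90 each), Rdh10 like Traf3ip3 (0.92), Bub1 (0.84) and Rpain (0.83), and Aldh1a1 like Gm36958 (0.79), Tmem100 (0.77) and Gm22395 (0.76). These are the highest of 15078 genes and are given as a description.

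Several members were read from more than 1 transcript. Rarb-201 made up 65.9% to 96.9% of Rarb TPM (median 76.0%). Cyp26b1-205 and Cyp26b1-204 had median shares of 72.2% and 24.8%. Stra6 was spread over Stra6-202 (median 35.8%), Stra6-213 (35.6%) and Stra6-214 (16.8%), which start at different positions. Crabp1 and Aldh1a2 have 1 annotated transcript each, so their values need no split of reads between isoforms.

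Of 57 other genes of the pathway, 34 to 35 could be tested, and 0 passed for AVP or sex in any comparison by limma. In males, 0 were higher and 9 of 35 lower with AVP at an unadjusted p under 0.05, where 12.4% of all genes were lower. In females 1 was higher and 1 lower of 34, where 4.51% of all genes had such a p in either direction. In all libraries 0 were higher and 5 lower of 34, where 10.4% of all genes had one in either direction. Their median log2 difference was -0.16 in males, against -0.10 for all genes. Among transport and storage genes the highest mean levels were those of Ttr (427 TPM), the triglyceride enzyme Dgat1 (46.3 TPM) and the lipase Lpl (22.3 TPM). Among alcohol and retinol dehydrogenases they were Adh5 (173 TPM), Rdh11 (32.3 TPM) and Rdh13 (29.2 TPM). Of the breakdown enzymes beside Cyp26b1, Cyp26a1 averaged 0.0960 TPM and Cyp26c1 was listed at 0 in 12 libraries, which left Cyp26b1 as the one expressed above 1 TPM.

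Among binding proteins and receptors, Fabp5, which also carries retinoic acid, averaged 804 TPM, Rxrb 54.9 TPM and Rxrg 11.5 TPM. Rarg averaged 10.1 and Rara 7.36 TPM, close to the 8.82 TPM of Rarb, but they ranged from 7.51 to 17.3 and from 4.94 to 9.06 TPM, against 2.31 to 20.3 TPM. Co-regulators included Hdac3 (100 TPM) and Ncor1 (90.6 TPM), and response genes included Meis2 (173 TPM). One pathway gene passed on each of 2 scores. Rxrg, the partner receptor, rose with the striatal score and ran from 1.01 TPM in AVP male 1 to 32.1 TPM in AVP male 3, the same libraries that held the lowest and highest Rarb. Tgm2, a retinoic acid response gene, rose with the meningeal score and ran from 1.85 to 7.72 TPM.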

How the data were processed

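The authors trimmed reads and quantified GENCODE M16 transcripts on GRCm38 with strand-aware Kallisto. They deposited 1 table of transcript abundance per library, read here as TPM. The submitters' processing notes name Trim Galore 0.4.1, FastQC 0.5.2, kallisto 0.43.1 and sleuth 0.29.0. Each library sums to 1000000, so the depth of each library and its counting error are not known here; the study's methods give only an average number of reads per sample. The 133849 transcripts were summed to 53337 genes with GENCODE M21; 404 did not match (0.154% to 0.199% of TPM). Genes that reached 1 TPM in 50% or more of a fit's libraries were tested with limma 3.58.1 (R 4.3.3, mean-variance trend, two-sided) on log2(TPM + 0.5), with Benjamini-Hochberg adjustment over all genes tested and a threshold of 0.05. Sexes were fitted separately, then together with sex as a covariate and with an interaction. Marker scores were mean log2 values; fits on a score had the 4 groups as a term and left out the list's own genes. Single members had exact two-sided permutation tests (scipy 1.17.1), and correlations had 100000 resamples. The fits were also run on simulated data. Noise was drawn independently for each gene, except marker genes kept at their real values in fits on a score. Variation shared between the other genes, as from dissection, was therefore not simulated. Named genes were the 9 members, the 3 genes most alike to each, the pathway genes past a threshold and the 3 highest of each pathway list. Some genes that this rule names are not reported here. The members and lists were chosen with earlier results of these data known. Promoter sequence came from RefSeq on GRCm38.p6. Alternatives were another pseudocount, filter, scaling, trend, covariate or fit, and leaving out each library.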

Additional observations from a re-analysis of the deposited data

Results flagged for a closer look

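Stra6 was at 4.05 TPM in saline female 1, against 3.03 to 3.17 TPM in the other 3 saline female libraries, a gap of 0.865 of the group's whole range. The same library had the highest meningeal score (2.97), Aldh1a2 (8.00 TPM) and Crabp2 (8.79 TPM) of its group. This was 1 of 39 groups of 4 values examined, among which chance gives about 1.95.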

How the results depend on the processing

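Of 523 recomputed values for single members, 500 kept their direction and their side of the threshold. No member passed for AVP, sex or the interaction under any alternative. In males, quantile normalization turned Rdh10 to 0.0798 and Stra6 to 0.14, and median-of-ratios scaling to 0.0436 and 0.0790. Leaving out each male library gave -0.15 to 0.0458 for Rdh10, -0.28 to 0.86 for Crabp1, -0.19 to 0.0942 for Stra6, -0.39 to 0.57 for Rarb, -0.16 to 0.48 for Aldh1a2 and -0.12 to 0.55 for Crabp2. It gave 0.22 to 0.62 for Cyp26b1 and -0.67 to -0.0361 for Aldh1a1. In females it gave 0.74 to 1.03 for Aldh1a2, 0.64 to 1.05 for Crabp2, 0.26 to 0.42 for Stra6 and 0.0764 to 0.19 for Rdh10, and wider ranges of -1.61 to -0.39 for Crabp1, -1.26 to -0.42 for Rarb, -0.77 to -0.0704 for Cyp26b1 and -0.45 to -0.0237 for Aldh1a1. The single gene called in males became 0 with a pseudocount of 1, a filter of 5 TPM, the library number run as a covariate or 1 fit of all 15 libraries, and 2 with no trend; the cause was not tested. Leaving out each library gave 0 to 6 genes in males, 0 to 6 in females, 0 to 1 for AVP in all libraries, 0 to 7 for sex and 0 to 1 for the interaction. On the meningeal score, no group term gave 240 genes and Stra6 passed (0.45; adjusted p = 0.0180); each library left out gave 0 to 122 genes and 0 to 2 members. Without the 4 meningeal genes that the study lists as changed, 115 genes and 2 members passed. On the striatal score, no group term gave 29 genes, and each library left out gave 8 to 25. On the endothelial score, no group term gave 215 genes and 1 member, Aldh1a2 (1.73; adjusted p = 0.0231), and each library left out gave 0 to 75 genes and 0 to 1 members. On the choroid plexus score, median-of-ratios scaling gave 11 genes, the run as a covariate 0, and each library left out 1 to 5. No paired analysis was possible because the labels tie no library of one group to a library or litter of another. The unknown depth of each library and the 3 or 4 libraries a group limit the precision; among the members tested, Crabp1 and Rarb had the largest standard errors for AVP, 0.69 and 0.47 in females and 0.76 and 0.65 in males.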
